A study of Canis lupus familiaris with 6 samples.

Results

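Collagen folding and crosslinking enzymes were followed through the listed genes SERPINH1, FKBP10, P4HA1, P4HA2, PLOD1, PLOD2, CRTAP, PPIB and LOX, 9 in all. Members were every probe set annotated to 1 of these symbols alone, which gave 20 of the 42860 probe sets on the array and covered 8 of the 9 genes. PLOD2, a lysyl hydroxylase of the collagen telopeptides, had no such probe set and was not analysed here. Of the 20 probe sets, 19 lay above the filter on low values, and the remaining one belonged to P4HA1. Each of the 8 genes was represented by its probe set with the highest mean, and all 8 were among the 10530 genes kept of 15112 with a probe set.

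The samples came from the mandibles of beagle dogs aged 9 years, in which holes 4.5 mm wide and 8 mm long were drilled 3 months after premolars had been removed. Control holes received no implant, and the other holes received beta-TCP (beta-tricalcium phosphate), a resorbable calcium phosphate ceramic used as a bone graft substitute. Tissue cylinders taken at day 4, day 7 or day 14 gave 6 groups of 1 Affymetrix canine array each, so no value below has a replicate error and no difference on a single day has a test. All groups share the extraction, the healed socket and the drilling, and the labels used here do not say how many dogs were used or which holes lay in the same dog.

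Fibrillar procollagen is modified in the endoplasmic reticulum before it is secreted. Prolyl hydroxylases act on proline and lysyl hydroxylases on lysine, the CRTAP complex modifies a specific proline, and the chaperones encoded by SERPINH1 and FKBP10 hold the folding helix. LOX then oxidises lysines outside the cell so that the fibrils can crosslink, and loss of several of these genes is known to cause brittle bone disease.

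The deposited values of the 4 arrays of days 4 and 7 had a median of 1.0, whereas those of day 14 had medians of 12.0 in the control and 6.2 with beta-TCP. Each array was therefore divided by its own median, and a value below is a multiple of that median. Differences are on the log2(value + 1) scale, which understates the change of low values, and the text calls a difference 2-fold where it reaches 1 on that scale. Day 14 and the way its values were made cannot be told apart in a difference between days. The beta-TCP array of day 14 also stood apart from the rest, with a Spearman correlation of 0.756 to 0.872 across genes to each other array, against 0.850 to 0.941 among those 5. Markers of osteoblasts (10 of 11 kept) summed to between 1840 on the day 4 control and 4690 on beta-TCP at day 14, with collagen chains making up most of that sum. The osteoblast marker IBSP stood at 4.80 on the day 4 control and between 13.1 and 251 on the other arrays, and MEPE was under 0.1 on the day 4 arrays and the day 7 control. Stratified epithelium markers (8 of 10 kept) summed to 281 on the day 4 control and to 19.6 to 69.4 elsewhere. Neutrophil markers (5 of 7 kept) were also highest on the day 4 control, at 2070, and lowest on beta-TCP at day 14, at 108. The tissue was mixed, and in a bulk sample fewer cells of a type and less RNA per cell cannot be told apart.

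**Figure D1:**
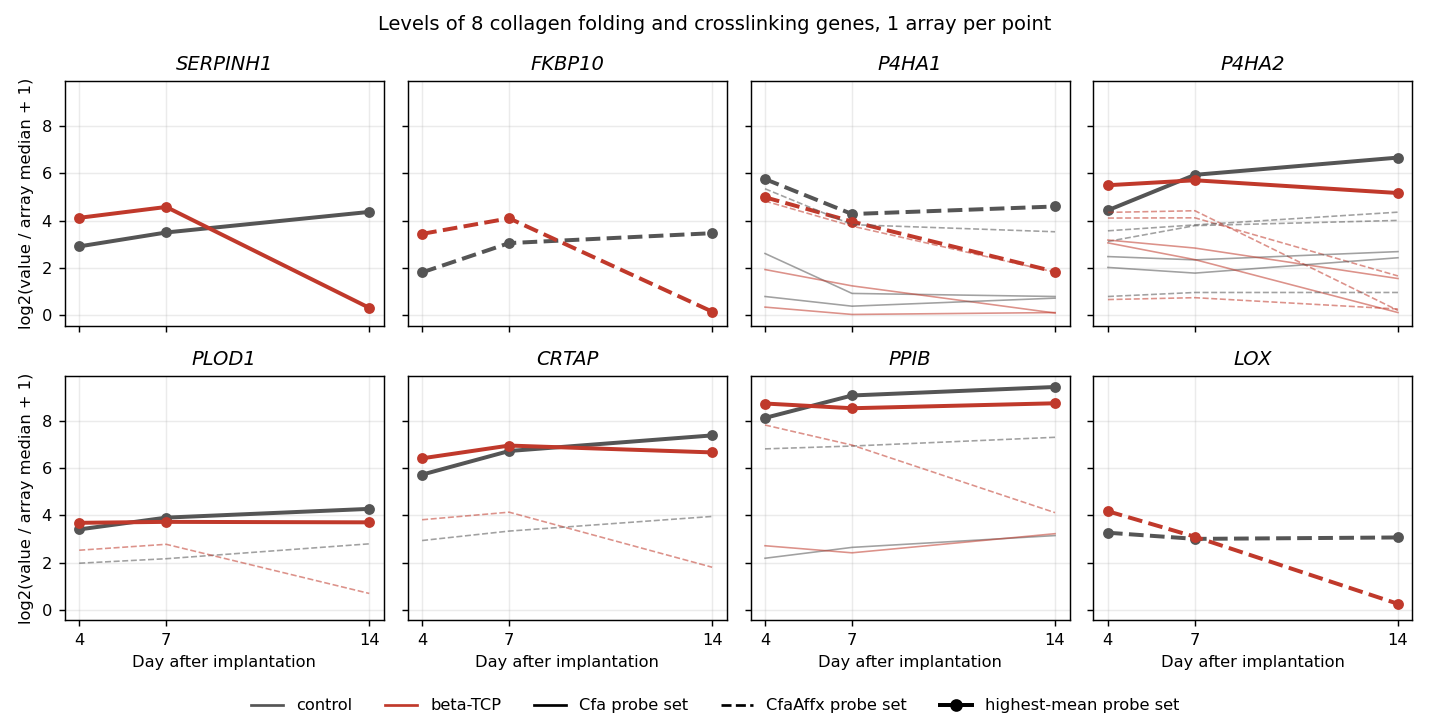
Level of each of the 8 genes, as log2 of the multiple of the array median plus 1, against the day of sampling for control and beta-TCP holes, with 1 array per point. Thick lines show the probe set with the highest mean, thin lines the others of the 20, and dashes mark CfaAffx probe sets. SERPINH1 and FKBP10 were above control with beta-TCP at days 4 and 7 and far below it at day 14, and P4HA1 was highest on the day 4 control.

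The procollagen chaperones SERPINH1 and FKBP10 stood higher with beta-TCP at days 4 and 7 and much lower at day 14. SERPINH1 encodes HSP47, the chaperone that binds folded procollagen. Its level was 6.52 in the control and 16.4 with beta-TCP at day 4, 10.3 and 23.0 at day 7, then 19.6 and 0.242 at day 14. The beta-TCP array was thus the higher one on the first pair of days, and the day 14 array was the only one on which SERPINH1 lay under the array median. On the log2 scale the beta-TCP minus control difference was 1.21 at day 4, 1.08 at day 7 and -4.06 at day 14. The size at day 14 depends on the pseudocount, since the beta-TCP value is so low: it was -5.34 with 0.25 added and -1.13 with 16. The deposited day 14 intensities behind it were 235.8 in the control and 1.5 with beta-TCP.

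FKBP10 encodes FKBP65, a peptidyl-prolyl isomerase that acts on procollagen and on its lysyl hydroxylation. Its level was 2.51 in the control and 9.82 with beta-TCP at day 4, 7.26 and 16.2 at day 7, then 10.1 and 0.113 at day 14. The order of the arrays was the same as for SERPINH1 on all 3 days. The differences were 1.62, 1.06 and -3.31, and the day 4 value ranked 31 of 10530 from the highest. With 0.25 or 16 added the day 14 value was -4.83 or -0.69. SERPINH1 and FKBP10 each had 1 probe set on this array, so neither pattern could be read on another probe set of the same gene.

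The catalytic subunits of prolyl 4-hydroxylase, P4HA1 and P4HA2, differed in direction at day 4. P4HA1, whose transcription is known to respond to low oxygen, was highest on the day 4 control. On its brightest probe set its level was 53.3 in the control and 30.7 with beta-TCP at day 4, 18.4 and 14.5 at day 7, then 23.2 and 2.58 at day 14. The day 4 arrays were the highest of each treatment, and the control lay above beta-TCP on all 3 days. The beta-TCP minus control differences were -0.78, -0.32 and -2.76. The 2 other probe sets above the filter gave -0.52 and -0.68 at day 4 and -1.71 and -0.70 at day 14. At day 7 these 2 gave -0.06 and 0.33, so the probe sets shared a direction at days 4 and 14 and not at day 7. The probe set below the filter, under the array median throughout, gave -0.44, -0.35 and -0.61.

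P4HA2, the isoform that also hydroxylates prolines of collagen, had 6 probe sets above the filter. The brightest read 20.6 in the control and 44.4 with beta-TCP at day 4, 60.5 and 51.4 at day 7, then 101 and 34.9 at day 14. Its differences were 1.07, -0.23 and -1.50. At day 4, 5 of the 6 probe sets were higher with beta-TCP, by 0.70 to 1.07, and the dimmest read -0.13. At day 7, 4 of the 6 were higher, by 0.33 to 0.60, while the brightest and the dimmest were lower. At day 14 all 6 were lower, between -4.16 and -0.71. The sign for P4HA2 was therefore shared by most probe sets at day 4 and by all at day 14, and at day 7 it depended on the probe set read.

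PLOD1, the lysyl hydroxylase of the collagen helix, differed little between the treatments on its brighter probe set. That probe set read 9.63 in the control and 11.9 with beta-TCP at day 4, 14.0 and 12.3 at day 7, then 18.4 and 12.1 at day 14. Its differences were 0.28, -0.17 and -0.57. The other PLOD1 probe set gave 0.55, 0.61 and -2.09, so the pair had opposite signs at day 7 and sizes far apart at day 14.

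CRTAP and PPIB encode the cartilage-associated protein and cyclophilin B, partners in the prolyl 3-hydroxylase complex. CRTAP read 52.1 in the control and 84.6 with beta-TCP at day 4, 105 and 123 at day 7, then 167 and 100 at day 14. Both of its probe sets were higher with beta-TCP at days 4 and 7 and lower at day 14. The brighter gave differences of 0.69, 0.23 and -0.72, and the other gave 0.88, 0.80 and -2.15.

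PPIB read 279 in the control and 428 with beta-TCP at day 4, 539 and 372 at day 7, then 693 and 430 at day 14. The differences of this probe set were 0.61, -0.53 and -0.69. The 2 other PPIB probe sets gave 1.01 and 0.53 at day 4, 0.03 and -0.23 at day 7, then -3.19 and 0.07 at day 14. All 3 PPIB probe sets were higher with beta-TCP at day 4, but at day 14 their values were far apart, and 1 of them was slightly above 0.

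LOX, the lysyl oxidase that starts fibril crosslinking, read 8.67 in the control and 17.2 with beta-TCP at day 4, 7.08 and 7.59 at day 7, then 7.38 and 0.194 at day 14. The day 4 beta-TCP array was its highest, and the control changed little with time. The differences were 0.91, 0.09 and -2.81, all from its 1 probe set. With 0.25 or 16 added the day 14 value was -4.10 or -0.53.

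Read together at day 4, 7 of the 8 genes were higher with beta-TCP, where 6601 of all 10530 genes were, and P4HA1 was lower. SERPINH1, FKBP10 and P4HA2 were at least 2-fold higher, 3 of 8, where 4.52% of all genes were. That count was 1 with division by the 90th percentile of each array and 0 with a pseudocount of 16. No member was at least 2-fold lower, against 3.1% of all genes, although 1 was under the 90th percentile division. The member median was 0.80 and that of all genes 0.17. Markers of fibroblasts (8 of 8 kept) moved with these genes: their sum was 972 in the control and 1590 with beta-TCP at day 4, and 4 of the 8 were at least 2-fold higher. The epithelium sum was 281 in the control and 24.4 with beta-TCP, and the neutrophil sum 2070 and 1030. Their part in the day 4 differences was not tested.

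At day 7, 4 of the 8 genes were higher and 4 were lower with beta-TCP, with a member median of -0.04 and an all-gene median of -0.08. Only SERPINH1 and FKBP10 were at least 2-fold higher, 2 of 8, where 2.96% of all genes were, and 0 were with a pseudocount of 16. No member was at least 2-fold lower, against 3.44% of all genes. The fibroblast sums at day 7 were 2060 in the control and 2180 with beta-TCP, and 1 of the 8 markers was at least 2-fold higher (POSTN, 3.44). Osteoblast markers were at least 2-fold higher in 5 of 10 and cartilage markers in 3 of 4, with none 2-fold lower. Neutrophil and osteoclast markers were at least 2-fold lower in 3 of 5 each, with none 2-fold higher. The osteoclast sums were 2630 in the control and 1320 with beta-TCP. The part of these in the day 7 differences was not tested.

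At day 14 all 8 genes were lower with beta-TCP, as were 6649 of all 10530 genes. SERPINH1, FKBP10, P4HA1, P4HA2 and LOX were at least 2-fold lower. That is 5 of 8, where 15.4% of all genes were (3 of 8 with a pseudocount of 16, and 2 of the 6 genes with a Cfa probe set on those alone), and none was 2-fold higher, against 3.47% of all genes. The member median was -2.13 and that of all genes -0.23. Of the 8 fibroblast markers, 6 were lower and 4 at least 2-fold lower, with a median of -0.67. Their sum was 3320 in the control and 3210 with beta-TCP, and COL3A1, at 1520 and 1880, and LUM, at 876 and 894, made up most of it. Neutrophil markers were at least 2-fold lower in 5 of 5, with sums of 324 and 108. Osteoclast markers (5 of 6 kept) were at least 2-fold higher in 4 of 5, with sums of 902 and 1790. Endothelial markers were higher in 5 of 5, where 3880 of all 10530 genes were. Of the 10 osteoblast markers kept, 4 were at least 2-fold higher and none 2-fold lower. Their sums were 2720 in the control and 4690 with beta-TCP, most of it COL1A1 and COL1A2. The part of these in the day 14 differences was not tested.

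**Figure D2:**
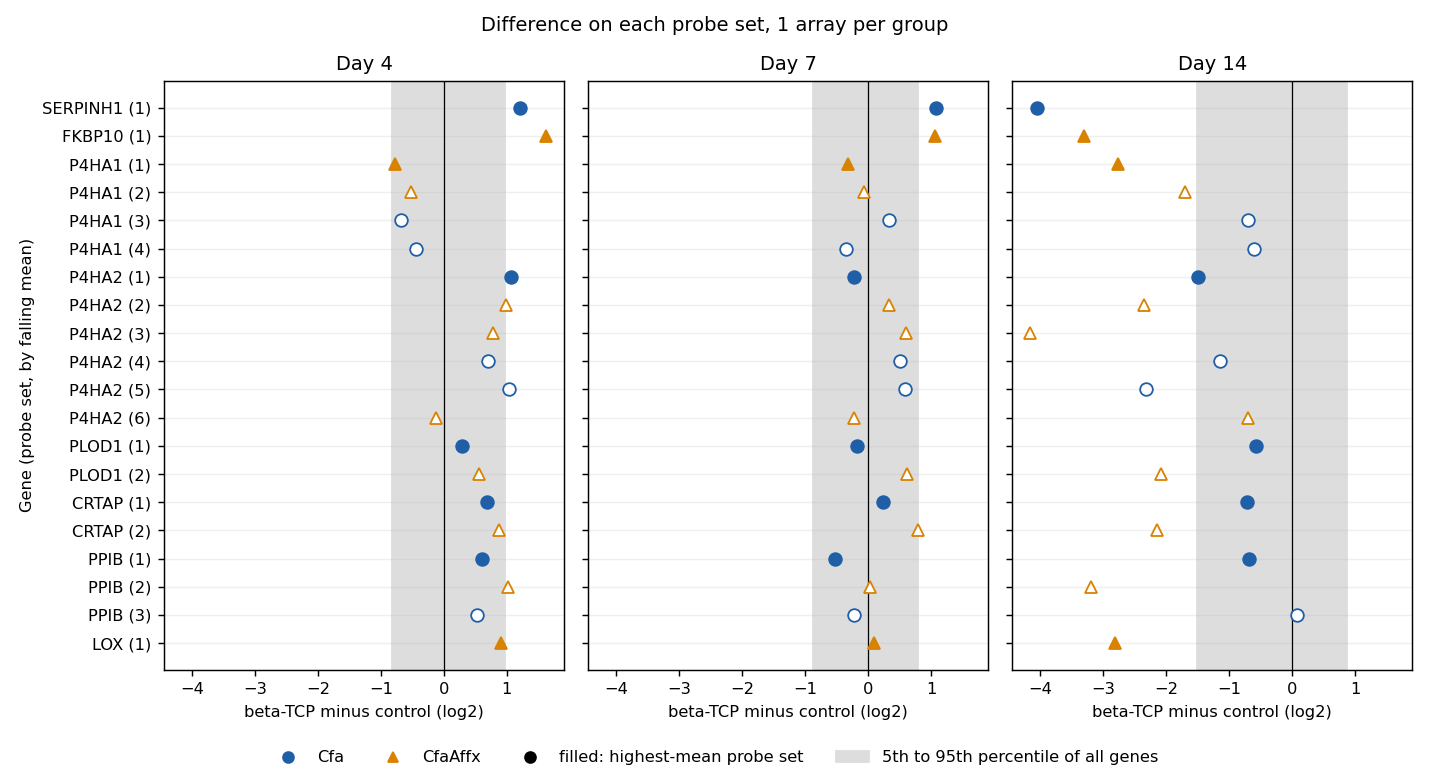
Beta-TCP minus control difference on the log2(value + 1) scale for each of the 20 member probe sets, by gene and day, with 1 array per group. Symbols give the name type, filled ones the brightest probe set of a gene, and grey the 5th to 95th percentile of all genes. At day 14 the CfaAffx probe sets lay between -4.16 and -0.71, and 18 of the 19 probe sets above the filter were below 0.

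The size of the day 14 difference moved with the type of probe set. Names on this array begin with Cfa or with CfaAffx, and the 19 member probe sets held 9 of the former and 10 of the latter. Of the Cfa probe sets, 4 of 9 were at least 2-fold lower with beta-TCP at day 14, with a median of -0.72. Among the CfaAffx probe sets, 9 of 10 were, with a median of -2.55. Over all probe sets above the filter the medians were -0.22 for 8397 Cfa probe sets and -0.36 for 9876 CfaAffx probe sets, and the shares at least 2-fold lower were 14.9% and 21.4%. Among probe sets with a mean log2 value of 2 or more, a limit set after the data were seen, these shares were 17.9% and 39.0%. The type of probe set and the gene read by it cannot be told apart for FKBP10 and LOX, which had CfaAffx probe sets alone. SERPINH1 was read by a Cfa probe set.

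Of the genes with both types, PPIB showed the widest split. The gap between its brightest CfaAffx and its brightest Cfa probe set was lower with beta-TCP than in the control at day 14, with a change of -2.50 in log2, and 0.915% of 1639 genes, those with both probe sets at a mean log2 value of 2 or more, had a gap change this low or lower. CRTAP had a change of -1.42 and PLOD1 one of -1.53, with 14.6% and 11.7% of genes at or below them. P4HA1 had -2.06, with a Cfa probe set under that level. P4HA2 had -0.84, close to the median over all 1639 genes of -0.61. The larger day 14 differences of CRTAP, PLOD1 and PPIB thus stood on CfaAffx probe sets alone, and the part of the probe set type in them was not tested.

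**Figure D3:**
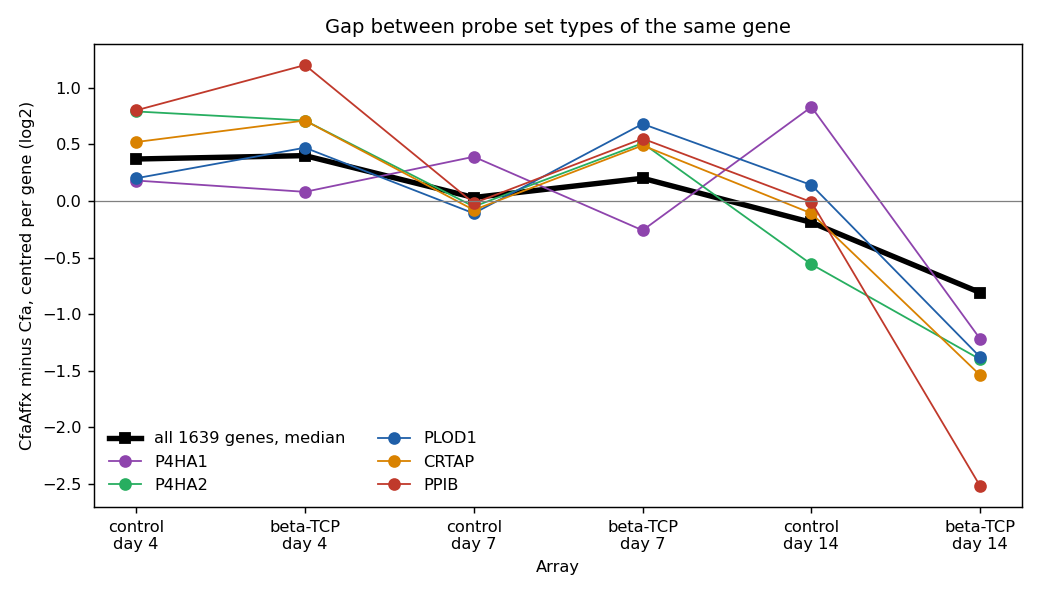
Brightest CfaAffx probe set minus brightest Cfa probe set, in log2 and centred over the 6 arrays, for the 5 genes with both types and for the median of 1639 genes. Lines only join the points of 1 gene, and all 5 genes were lowest on the beta-TCP array of day 14, from -2.52 for PPIB to -1.22 for P4HA1.

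The course of healing in the control holes ran upward for most of these genes. From day 4 to day 7, FKBP10 was higher by 1.23 and P4HA2 by 1.51, 2 of 8 at least 2-fold higher, where 15.9% of all genes were. CRTAP lay just under 2-fold, at 1.0 after rounding. P4HA1 was lower by 2-fold or more, with -1.48, against 4.73% of all genes, and its 2 other probe sets gave -1.52 and -1.69. From day 7 to day 14 all 8 genes were higher on their brightest probe sets, by 0.05 for LOX to 0.87 for SERPINH1, where 5124 of all 10530 genes were. For P4HA1 the brightest gave 0.32, and the 2 others above the filter gave -0.3 and -0.13. No member reached 2-fold higher or lower, where 4.19% and 6.29% of all genes did. The member median was 0.77 for the first interval and 0.40 for the second, against 0.27 and -0.02 over all genes. The P4HA2 difference to day 7 was 1.51 on the brightest probe set and between -0.24 and 0.67 on the other 5.

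With beta-TCP the genes went both ways between days 4 and 7, from -1.08 for LOX to 0.67 for FKBP10, with a member median of 0.13. P4HA1 was lower by 2-fold or more, with -1.03, as was LOX, with -1.08, 2 of 8 against 2.58% of all genes. No member was 2-fold higher, against 4.87% of all genes. From day 7 to day 14, SERPINH1 (-4.27), FKBP10 (-3.95), LOX (-2.85) and P4HA1 (-2.12) were at least 2-fold lower, 4 of 8 against 16.6% of all genes. None was 2-fold higher, against 4.82%, and PPIB alone was higher at all, by 0.21 on its brightest probe set. The other PPIB probe sets gave -2.86 and 0.81. CRTAP and PLOD1 read -0.29 and -0.02 on the brightest probe set and -2.32 and -2.08 on the other. P4HA2 read -0.55 on its brightest, and its other probe sets lay between -4.22 and -0.48. In both treatments P4HA1 was therefore lower at day 7 than at day 4, the interval in which both arrays were deposited on the same scale.

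An additive model fitted with limma across all 10530 genes, with terms for day and treatment and 2 residual degrees of freedom, gave the tests this design allows. It treats the departure of the 3 days from a common beta-TCP effect as the error, so a treatment effect that differs between days widens that error. For the average beta-TCP effect, 0 members and 0% of all genes in either direction passed an adjusted p of 0.05 in limma, and 513 genes had an unadjusted p under 0.05. P4HA1 had the lowest p of the 8, with an effect of -1.28 ± 0.44 (SE) and an adjusted p of 0.702 in limma, and it was lower with beta-TCP on 3 of 3 days. The 7 others had effects between -0.60 and 0.07 and an adjusted p of 1.0 in limma.

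Between days, P4HA1 fell from day 4 to day 14, with a change of -2.16 ± 0.54 (SE) in log2 and an adjusted p of 0.0465 in limma. It was the only member to pass, where 3.03% of all genes passed as lower and 1.89% as higher. The call was lost with a pseudocount of 0.25 or 16, the mean of the probe sets, CfaAffx probe sets alone or no filter, with adjusted p-values of 0.098 to 0.182 in limma. LOX had -2.07 ± 0.70 (SE, adjusted p of 0.110 in limma), and CRTAP had 0.95 ± 0.43 (SE, adjusted p of 0.219 in limma). From day 4 to day 7 no member passed in limma, against 0.294% of all genes higher and 0.18% lower, and from day 7 to day 14 neither did any member nor any gene (0%). Without the beta-TCP array of day 14, an alternative chosen after the data were seen, P4HA1 had an effect of -1.05 for day 14 minus day 4. It then passed for day 7 minus day 4, with -1.26 ± 0.34 (SE) and an adjusted p of 0.00629 in limma, where 2.6% of all genes passed as lower and 7.81% as higher.

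The same alternative left 1 residual degree of freedom and called 4 members higher at day 14 than at day 4. They were P4HA2 at 1.91 ± 0.46 (SE, adjusted p of 0.00112 in limma), CRTAP at 1.55 ± 0.46 (SE, adjusted p of 0.011), FKBP10 at 1.51 ± 0.46 (SE, adjusted p of 0.0133) and SERPINH1 at 1.43 ± 0.45 (SE, adjusted p of 0.021). Of all genes, 8.4% passed as higher and 5.01% as lower. These shares in limma carry the same limit. With the beta-TCP array of day 14 in the model, no member passed as higher at day 14 than at day 4.

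Leaving out both day 14 arrays let SERPINH1 and FKBP10 pass for the average beta-TCP effect. SERPINH1 then had 1.15 ± 0.34 (SE) and an adjusted p of 0.0499 in limma, just under the threshold. FKBP10 had 1.34 ± 0.34 (SE) and an adjusted p of 0.0125 in limma, and both genes were higher on 2 of 2 days. Of all genes, 1.04% passed in each direction. P4HA1 had -0.55 and LOX 0.50 in that fit, with adjusted p-values of 0.671 and 0.737 in limma. This fit rests on 4 arrays and 1 residual degree of freedom, and nearly all of its error estimate is shared across genes.

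**Figure D4:**
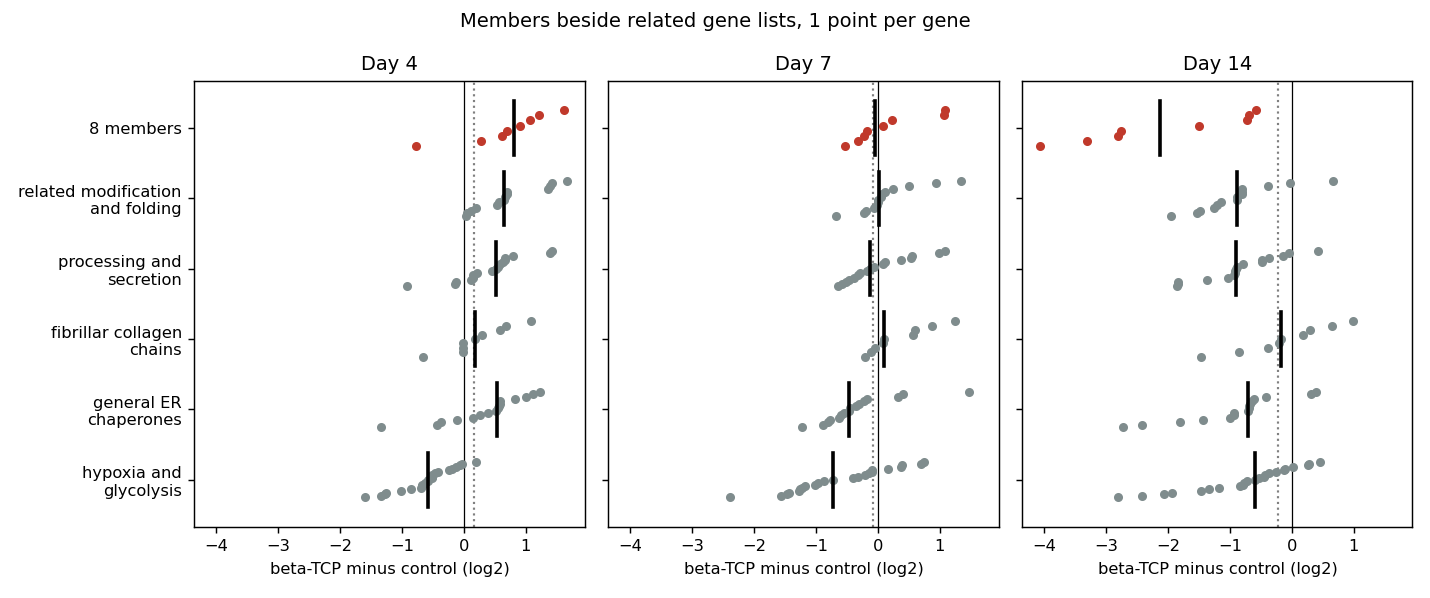
Beta-TCP minus control difference in log2 for each gene of the members and of the related gene lists on each day, with 1 array per group, a bar at the median of each list and a dotted line at the median of all genes. At day 14 the member median was -2.13, against -0.88 for related modification and folding genes, -0.17 for fibrillar collagen chains and -0.23 for all genes.

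Other genes of collagen modification and folding were higher with beta-TCP at day 4 in 14 of 14 kept, where 6601 of all 10530 genes were. Their differences ran from 0.04 for CREB3L1 to 1.66 for P3H4. Of 16 listed, 14 were kept, and P3H4, FKBP7, FKBP9 and PEPD were at least 2-fold higher with beta-TCP, with 1.66, 1.42, 1.39 and 1.35. FKBP9 and PEPD rested on low day 4 control values, 0.138 and 0.245, against 1.97 and 2.16 with beta-TCP. P3H4 encodes a partner of the lysyl hydroxylation complex, FKBP7 and FKBP9 are isomerases of the FKBP10 family, and PEPD encodes prolidase, which recycles proline from collagen. None was 2-fold lower, and the list median was 0.65. At day 7 FKBP14 was the only one past 2-fold, at 1.34, with a list median of 0.02. At day 14, 6 of the 14 were at least 2-fold lower, where 15.4% of all genes were, namely P4HA3 (-1.95), FKBP7 (-1.53), FKBP9 (-1.48), PEPD (-1.25), CREB3L1 (-1.20) and FKBP14 (-1.14), and the median was -0.88. P4HA3 encodes a further prolyl 4-hydroxylase subunit and CREB3L1 a transcription factor of the secretory pathway in osteoblasts. All 6 were read by CfaAffx probe sets, of which the list held 8, and none of its 6 genes read by Cfa probe sets was 2-fold lower. FKBP9, PEPD and CREB3L1 had low values with beta-TCP at day 14, of 0.242, 0.21 and 0.274.

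Of the partners that share a complex with members, P4HB and P3H1 had differences under 2-fold on all 3 days, whereas P3H4 read 1.66 at day 4. P4HB, the shared subunit of prolyl 4-hydroxylase, had differences of 0.53, -0.23 and -0.80 at days 4, 7 and 14. P3H1, the catalytic partner of CRTAP and PPIB, had 0.56, 0.51 and -0.81. At day 14 these stood beside -0.72 for CRTAP and -0.69 for PPIB.

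Beside LOX, 2 of the 4 listed lysyl oxidases were kept. LOXL2 had differences of 1.02, -0.61 and -1.24, and LOXL3 had -0.13, -0.23 and -0.37. LOXL2 was thus 2-fold higher at day 4 and 2-fold lower at day 14, whereas LOX at day 4 read 0.91.

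Genes of procollagen processing and secretion (17 of 20 kept) had medians of 0.52, -0.12 and -0.90. At day 4 PCOLCE, an enhancer of procollagen C-propeptide cleavage, was higher by 1.39, and ADAMTS2, the procollagen N-proteinase, by 1.42. Both also rose from day 4 to day 14 in the limma fit, PCOLCE by 2.10 ± 0.52 (SE, adjusted p of 0.0468) and ADAMTS2 by 2.49 ± 0.50 (SE, adjusted p of 0.0182). At day 14, 5 of the 17 were at least 2-fold lower with beta-TCP, where 15.4% of all genes were, namely the COPII coat genes SEC23A (-1.85), SEC24D (-1.84) and SAR1A (-1.36), PCOLCE2 (-1.83) and MIA2 (-1.03). SEC23A had been 2-fold higher at day 7, at 1.08.

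The fibrillar collagen chains, the substrates of these enzymes, gave no clear day 14 direction as a list read on the brightest probe sets. At day 14, 4 of the 9 chains kept were higher with beta-TCP and 5 lower. Of these 9, 1 was at least 2-fold higher at day 4 (COL5A2, 1.08), 1 at day 7 (COL24A1, 1.25) and none at day 14, when COL5A1 alone was 2-fold lower, with -1.47. The list medians were 0.18, 0.10 and -0.17. Some of the brightest probe sets lay at or near the top of the day 14 arrays. The COL3A1 probe set read held the highest intensity of the control array, 18281.7, against 11650.8 with beta-TCP. The brightest COL1A1 probe set lay near the top of both day 14 arrays, with deposited intensities of 15241.1 in the control and 15629.3 with beta-TCP against array maxima of 18281.7 and 17329.7. Its difference was -0.02 at day 4, 0.10 at day 7 and 0.99 at day 14. The other COL1A1 probe sets gave 1.65 and 1.05 at day 4, 1.79 and 1.29 at day 7, then -1.36 and -0.40 at day 14. The COL1A1 probe sets thus disagreed in sign at day 14 and in size at days 4 and 7. Of the 5 COL3A1 probe sets, 1 was lower with beta-TCP at day 14, at -1.30, and the brightest read 0.30. Of the 4 COL1A2 probe sets, 1 was lower, at -0.01, and the others lay between 0.57 and 1.19.

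P4HA1 is also known as a gene of the hypoxia response, and most genes listed for hypoxia and glycolysis were lower with beta-TCP. Of 23 kept, 22 were lower at day 4, 18 at day 7 and 19 at day 14, beside 3929, 6128 and 6649 of all 10530 genes. At least 2-fold lower were 5 at day 4, 9 at day 7 and 7 at day 14, beside 3.1%, 3.44% and 15.4% of all genes, and none was 2-fold higher on any day. SLC2A1, the glucose transporter, ADM and ERO1A were past 2-fold on all 3 days, with -1.27, -2.38 and -1.17 for SLC2A1 and -1.25, -1.28 and -1.93 for ADM. PFKFB3 was so at days 4 and 7 (-1.01 and -1.44), VEGFA at days 7 and 14 (-1.57 and -1.33), and BNIP3 at day 4 alone (-1.60). The glycolytic genes PGK1 (-1.46), ENO1 (-1.26), ALDOA (-1.17) and TPI1 (-1.01) were so at day 7, and ANKRD37 (-2.81), EGLN1 (-2.06) and PGAM1 (-1.46) at day 14. The list medians were -0.58, -0.72 and -0.59, beside P4HA1 differences of -0.78, -0.32 and -2.76. The 7 other members went the other way from this list at day 4, P4HA2 with 1.07 and LOX with 0.91 among them. At day 14 all 8 members were lower with beta-TCP. In the limma fit ANKRD37, a target of hypoxia-inducible factor, fell from day 4 to day 14, with -2.13 ± 0.53 (SE, adjusted p of 0.0471), next to the P4HA1 value of -2.16. ERO1A, the oxidase that renews protein disulfide isomerase and a known hypoxia target, fell as well, with -2.70 ± 0.42 (SE, adjusted p of 0.00589 in limma). Whether oxygen levels had a part in the P4HA1 values was not tested.

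The genes with the pattern most like each member were taken by the root mean square difference of centred log2 values over the 6 arrays, as a description. SERPINH1 and FKBP10 were near each other, at 0.31, and both had FSTL1, which encodes a secreted glycoprotein, among their nearest 3, at 0.31 and 0.22. P4HA1 was nearest to ANKRD37, at 0.12. The next were TBC1D23 and NINJ1, both at 0.29. P4HA2 was nearest to ZNF639, at 0.12, LOXL2, at 0.18, and GUCY1B1, at 0.19. CRTAP was nearest to HIBADH, at 0.06, MFAP2, at 0.09, and EPC2, at 0.10. PPIB was nearest to NOP10, at 0.06, BUD23, at 0.07, and the chaperone gene CANX, at 0.08. PLOD1 was nearest to ODF4, at 0.04, with CTNNBL1 and NSMAF at 0.06. LOX was nearest to PSMA6, at 0.22, RANBP1, at 0.23, and GINS4, at 0.28. The third gene was SLC30A5 for SERPINH1, at 0.39, and RTCA for FKBP10, at 0.41. Among the members themselves, PLOD1 and PPIB were 0.17 apart and CRTAP and P4HA2 0.29, whereas SERPINH1 and PPIB were 1.42 apart. All these distances were taken on the brightest probe set of each gene and hold for those probe sets alone. At day 14 the beta-TCP minus control difference of PPIB was -0.69 on its brightest probe set and -3.19 on its CfaAffx probe set.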

How the data were processed

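Total RNA of 100 ng per tissue cylinder was labelled with biotin for Affymetrix canine arrays, per the labels' protocols. The deposited table holds the authors' processed values, which are linear signal values with a median of 1.0 and a minimum of 0.01 for days 4 and 7. For day 14 the authors deposited intensity values with medians of 12.0 and 6.2 and a minimum of 0. The software and algorithm were not given in the sources used here. Gene names came from the platform annotation (29254 probe sets with 1 gene, 439 with several, 13167 with none), of which 27680 matched the RefSeq table of assembly UU_Cfam_GSD_1.0 by gene ID. Each array was divided by its median, and log2 values of the deposited signal and intensity were taken after adding 1. In all, 180 probe sets forming 90 pairs that share a name stem were left out. A gene was read by its probe set with the highest mean, and genes at or above the 40th percentile of probe set means (0.698 in log2) were kept.

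The additive model used limma 3.58.1 in R 4.3.3 with Benjamini-Hochberg adjustment over all genes kept, and the code was tested on simulated data. Genes were named where they were members, where a listed gene differed at least 2-fold or passed limma, or where they were among the 3 most like a member. P4HB, P3H1, LOXL3, the COL1A1 and COL1A2 probe sets, COL3A1, LUM, IBSP and MEPE were named beyond that, after their values were seen. The members and gene lists were chosen with earlier results of these data known. The number of arrays, 1 per group, limits the precision. The limma p-values test a day or treatment effect against an error taken from the departure from additivity among these 6 arrays, shared in part across genes. Alternatives tried were other scalings, pseudocounts, probe set rules, no filter, and leaving out a day or the beta-TCP array of day 14. No sequences were used here.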

Additional observations from a re-analysis of the deposited data

Results flagged for a closer look

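SERPINH1, FKBP10 and P4HA2 had beta-TCP minus control differences of at least 2-fold in opposite directions on different days. With 1 array per group, the change of the difference between days was not tested. For SERPINH1 the day 14 difference was lower than the day 4 difference by a change of -5.27 in log2, and the change from day 7 to day 14 was -5.14. For FKBP10 these changes were -4.93 and -4.37. For P4HA2, read on its brightest probe set, the change from day 4 to day 14 was -2.57. All 5 changes rest on the beta-TCP array of day 14, where the low SERPINH1 and FKBP10 values make their size depend on the pseudocount, and that day was deposited on another scale.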

How the results depend on the processing

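Of 132 summary values recomputed under the alternatives, 107 kept their direction and stayed within 1.5 times a count or on their side of the threshold, 23 moved further and 2 fell under 2-fold. The 107 include values that could not move. Dropping the filter or keeping the name-stem pairs left each day's member medians and counts fixed. All 8 genes passed the filter, and 0 member probe sets were in such a pair. A count of 0 that stayed 0 was also scored as kept. At day 4 the members at least 2-fold higher numbered 1 with division by the 90th percentile and 0 with a pseudocount of 16, against 3, and 1 member was 2-fold lower with the 90th percentile. The day 7 member median of -0.04 became 0.01 with quantile normalization, 0.04 with the 90th percentile or relative to the all-gene median, 0.24 with the mean of the probe sets, 0.03 with Cfa and 0.33 with CfaAffx probe sets alone. So its sign is not settled. The members 2-fold higher at day 7 numbered 0 with a pseudocount of 16 and 1 with either probe set type alone, which held 6 (Cfa) and 7 (CfaAffx) of the 8 genes. The day 14 median of -2.13 became -0.68 with a pseudocount of 16 and -0.71 with Cfa probe sets alone. Members 2-fold lower at day 14 numbered 3 with a pseudocount of 16, 8 with the mean of the probe sets and 2 with Cfa probe sets alone.

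In limma, members passing for the average beta-TCP effect numbered 0, and 2 without the day 14 pair. For day 14 minus day 4 the count of 1 became 0 with a pseudocount of 0.25 or 16, the mean of the probe sets, CfaAffx probe sets alone or no filter. Without the beta-TCP array of day 14, an alternative chosen after the data were seen, day 14 held 1 array, so no count is given for that difference. The P4HA1 adjusted p ranged from 0.0143 to 0.182 in limma. For day 7 minus day 4 the count of 0 became 1 without that array. The causes were not tested.

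No paired analysis was possible because the labels used here do not say which holes share a dog. The additive model already compares the treatments within a day. Low values on single arrays are the least certain, since 8 of 19 member probe sets lay under the array median on beta-TCP at day 14. The design names a search of promoter motifs, which was not run.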

Other observations

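General chaperones and folding enzymes of the endoplasmic reticulum, which act on many secreted proteins, had beta-TCP minus control medians of 0.54 at day 4, -0.46 at day 7 and -0.70 at day 14 over 16 of 18 listed genes. The collagen members had 0.80, -0.04 and -2.13. PPIC, which encodes cyclophilin C, was at least 2-fold higher with beta-TCP at day 4 (1.23) and at day 7 (1.47), as SERPINH1 and FKBP10 were. FKBP11, an isomerase of secretory cells, was 2-fold higher at day 4 (1.11) and 2-fold lower at day 14 (-2.73). ERO1A was 2-fold lower on all 3 days, with -1.34, -1.22 and -2.41. At day 14, DNAJB9 (-1.80), PDIA3 (-1.44) and HSP90B1 (-1.0), read by Cfa probe sets, were 2-fold lower as well. The list held 14 genes read by Cfa probe sets, of which 3 were 2-fold lower at day 14, and 2 read by CfaAffx probe sets, both 2-fold lower.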
